A study of Mus musculus with 18 samples.

Results

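Ovaries were examined at postnatal day 3 (Pd3) in F1 female mice born to dams fed a high-methionine diet (F1-HHcy) or a normal diet (F1-Control). The comparison used 6 of the 18 RNA-seq libraries of the series, chosen by their labels alone, with 3 libraries for each diet. All mice were C57BL/6J wild type, without a transgene or deletion in either group. The high-methionine diet held 3% methionine and raises homocysteine in the dam, and it was given from 4 weeks before mating by the labels, through gestation and lactation, while the paper describes a longer period of feeding from weaning age. At this age the pups met the diet through the dam. Whole ovaries were used, so a library mixes oocytes, follicular cells, stroma, vessels and blood, and the sources used here do not say whether 1 library holds 1 pup or several. Both groups lay in batch 1, between 34469767 and 36248714 fragments were counted on genes per library, and values are fragments per kilobase and library size (FPKM).

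The mouse ovary is remodelled in the days around birth. Germ cell cysts break apart, most oocytes finish meiotic prophase and rest in primordial follicles wrapped by flat pregranulosa cells, and many germ cells are lost. A part of the follicles in the medulla starts to grow at once, when the oocyte enlarges and lays down its zona pellucida and the granulosa cells become cuboidal and divide. In bulk RNA, fewer cells of a type and less RNA per cell cannot be told apart, so a level below is a level of the whole ovary.

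The 13277 genes that reached 1 FPKM in 3 or more of these 6 libraries entered the test, which was run with limma on log2(FPKM + 1). "Rose" and "fell" are used for genes with an adjusted p under 0.05. Of the tested genes, 218 rose (1.64%) and 190 fell (1.43%) in F1-HHcy. A looser criterion asked for an unadjusted p under 0.05 together with a change of more than 0.58 on the log2 scale. It was met by 9.74% of the genes, upward by 664 (5.0%) and downward by 629 (4.74%), and without F1-HHcy replicate 3, a library described in the next paragraph, by 7.63% upward and 7.85% downward. The groups did not overlap for 1567 genes that were higher in F1-HHcy (11.8%) and for 2132 that were lower (16.1%), and the median log2 fold change over all tested genes was -0.03.

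F1-HHcy replicate 3 stood apart from the other F1-HHcy libraries. On the first principal component of the tested genes, which held 62.6% of the variance, the F1-Control libraries lay between -31.8 and -18.5, F1-HHcy replicates 1 and 2 at 47.2 and 30.4, and F1-HHcy replicate 3 at -0.489. On the second component (20.7%) F1-HHcy replicate 3 lay at -37.8 and the other 5 libraries between 5.04 and 10.4. Without this library 1319 genes rose (9.93%) and 1618 fell (12.2%), and all 408 genes that passed with it were among them. For 296 of those 408 genes, F1-HHcy replicate 3 lay closer to the control mean than the mean of F1-HHcy replicates 1 and 2 did. Counts without it are therefore given for the gene lists, and values without it for the genes that it moves most. List counts without it are to be read against the 9.93% and 12.2% of all tested genes. Those with all libraries are to be read against 1.64% that rose and 1.43% that fell. The adjusted calls also rested on the controls: limma gave 0 genes without F1-Control replicate 1 (1782 at an unadjusted p under 0.05), a single gene that fell without F1-Control replicate 2, and 50 that rose and 70 that fell without F1-Control replicate 3. Without F1-HHcy replicate 1 they numbered 66 and 53, and without F1-HHcy replicate 2 42 and 49.

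**Figure D1:**
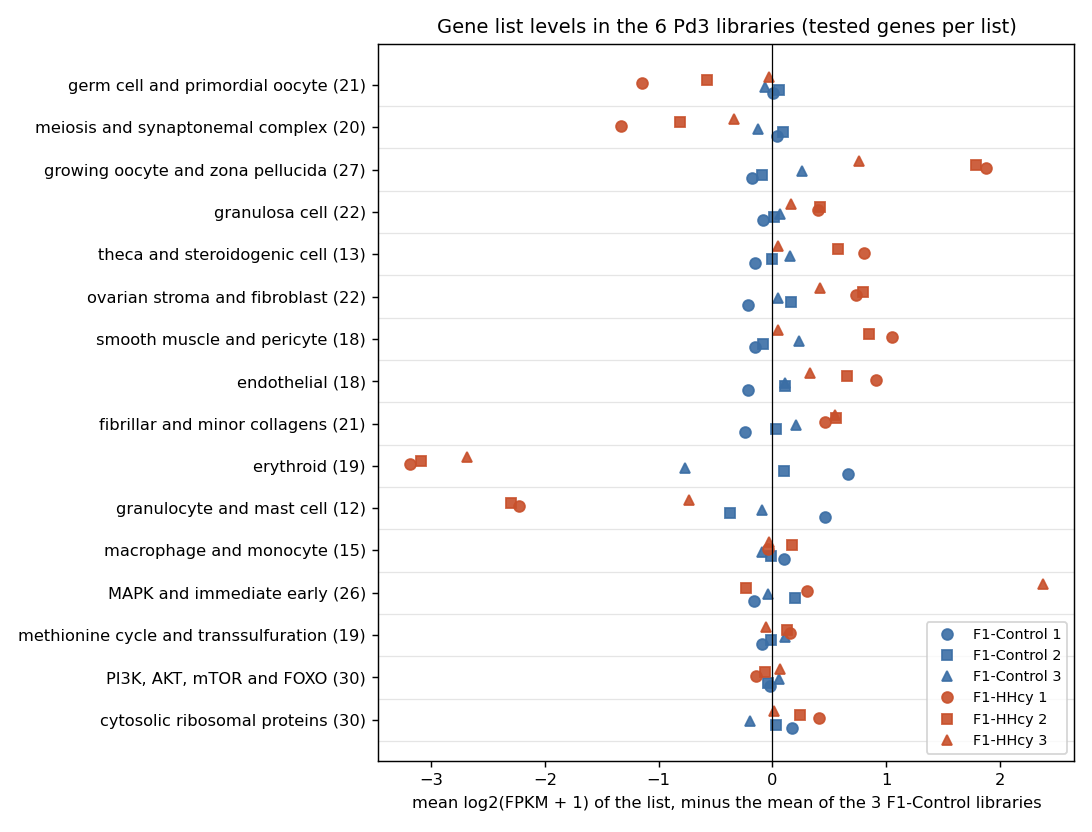
Mean log2(FPKM + 1) of 16 gene lists in each of the 6 Pd3 libraries, drawn as the difference from the mean of the 3 F1-Control libraries (blue, F1-Control; orange, F1-HHcy; symbols mark replicates 1, 2 and 3; tested genes in brackets). Growing oocyte genes lay to the right and erythroid genes to the left in all 3 F1-HHcy libraries. The joint list of MAPK and immediate early genes stood far to the right in F1-HHcy replicate 3 alone.

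Genes of growing oocytes were higher in the ovaries of F1-HHcy pups. Of 27 genes on this list, all of which were tested, 8 rose (29.6%, against 1.64% of all tested genes) and none fell. The looser criterion was met upward by 20 (74.1%, against 5.0%). The median log2 fold change of the list was 1.53. Without F1-HHcy replicate 3, 21 rose and 1 fell, against 9.93% and 12.2% of all genes, and the median was 2.01. Of the 27 genes, 4 reached the filter only through the F1-HHcy libraries and had to differ; of the other 23, 7 rose and 16 met the looser criterion upward. The mean level of the list was 4.04, 4.13 and 4.48 on the log2(FPKM + 1) scale in the F1-Control libraries and 6.09, 6.01 and 4.98 in the F1-HHcy libraries. The groups did not overlap, and F1-HHcy replicate 3 was the F1-HHcy library nearest the controls.

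Gdf9, the oocyte-secreted factor that drives granulosa cell growth, was at 33.5, 35.0 and 52.3 FPKM in F1-Control and 215, 168 and 83.9 FPKM in F1-HHcy libraries. All 3 F1-HHcy values lay above the controls, and Gdf9 rose (log2 fold change 1.85 with SE 0.34, adjusted p = 0.0388). Bmp15, its partner in the oocyte, was at 1.17, 0.707 and 1.80 FPKM in F1-Control and 34.0, 20.1 and 3.70 FPKM in F1-HHcy, without overlap (log2 fold change 2.79 with SE 0.66, adjusted p = 0.0644). Bmp15 did not pass with all libraries and passed without F1-HHcy replicate 3 (log2 fold change of 3.64, adjusted p = 0.000260). Both genes were picked after their values were seen.

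The zona pellucida genes, which encode the glycoprotein coat of the growing oocyte, were already expressed in the controls. Zp3, a major glycoprotein of the coat, was at 130.1, 163 and 217 FPKM in F1-Control and 369.5, 474 and 288 FPKM in F1-HHcy, and it rose (log2 fold change 1.15 with SE 0.24, adjusted p = 0.0486). Zp2 was at 202, 226 and 321 and 488, 728 and 444 FPKM in the same order and narrowly missed the threshold (log2 fold change 1.14 with SE 0.24, adjusted p = 0.0510). No F1-HHcy library of either gene overlapped the controls.

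Maternal-effect genes, whose products are stored in the oocyte for the early embryo, included several that rose. Zar1, needed by the embryo after fertilization, was at 7.12, 9.17 and 14.1 FPKM in F1-Control and 86.8, 78.5 and 40.8 FPKM in F1-HHcy (log2 fold change 2.62 with SE 0.32, adjusted p = 0.0175). Npm2, a nuclear chaperone of the egg, went from 69.1 ± 15.0 to 203 ± 47.5 FPKM (mean ± SD, n = 3; log2 fold change 1.53 with SE 0.22, adjusted p = 0.0214). Khdc3, a member of the subcortical maternal complex, went from 7.20 ± 1.34 to 15.6 ± 0.696 FPKM (log2 fold change 1.03 with SE 0.14, adjusted p = 0.0211), and here F1-HHcy replicate 3 was at the level of the other F1-HHcy libraries. Padi6, the most abundant gene of the list, was at 354, 396 and 552 FPKM in F1-Control and 479.6, 687 and 587 FPKM in F1-HHcy, with overlapping groups (log2 fold change 0.44 with SE 0.21, adjusted p = 0.255).

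The 12 largest rises by fold were Pramel26, Amh, Fbxw28, Cnmd, Pramel25, Pramel29, Nlrp9b, Fbxw14, Nlrp4a, Cpa1, Nlrp2 and Nlrp4b. The Pramel, Fbxw and Nlrp genes among them belong to clustered families with expression in oocytes, whose close copies share reads, so the split between copies is uncertain. Pramel26 was at 0.279, 0.347 and 2.45 FPKM in F1-Control and 48.4, 27.5 and 11.3 FPKM in F1-HHcy (log2 fold change 3.84 with SE 0.55, adjusted p = 0.0216). Nlrp9b was at 0.226, 0.421 and 0.477 FPKM in F1-Control and 22.1, 13.3 and 2.96 FPKM in F1-HHcy (log2 fold change 3.00 with SE 0.57, adjusted p = 0.0401). Of these 12 genes, 5 (Pramel25, Pramel29, Nlrp9b, Cpa1 and Nlrp2) were under 1 FPKM in all 3 controls, so they entered the test only through F1-HHcy and had to differ. In all 12 genes F1-HHcy replicate 1 was the highest and replicate 3 the lowest of the F1-HHcy libraries. Cnmd, a secreted inhibitor of vessel growth known from cartilage, went from 4.73 ± 2.72 to 54.5 ± 39.1 FPKM (log2 fold change 3.08 with SE 0.57, adjusted p = 0.0392), and Cpa1, a carboxypeptidase, from 0.321 ± 0.0783 to 9.25 ± 5.84 FPKM (log2 fold change 2.75 with SE 0.44, adjusted p = 0.0288).

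Granulosa cell genes had differences of both signs. Of 22 tested genes, 3 rose (13.6%, against 1.64% of all tested genes) and none fell. The looser criterion was met upward by 7 (31.8%, against 5.0%) and downward by 5 (22.7%, against 4.74%), and the median was -0.15. Leaving out F1-HHcy replicate 3 gave 7 that rose and 6 that fell, against 9.93% and 12.2% of all tested genes. Amh, anti-Müllerian hormone, which granulosa cells make once a follicle has started to grow, was at 1.65, 2.08 and 2.51 FPKM in F1-Control and 99.7, 35.2 and 9.72 FPKM in F1-HHcy. Every F1-HHcy library lay above the controls, over a wide range (log2 fold change 3.47 with SE 0.69, adjusted p = 0.0453), and the log2 fold change was 4.30 without F1-HHcy replicate 3. Inha, the inhibin alpha subunit, was at 34.2, 35.1 and 34.6 FPKM in F1-Control and 211, 106 and 79.9 FPKM in F1-HHcy (log2 fold change 1.78 with SE 0.31, adjusted p = 0.0338). Gja1, the connexin of granulosa gap junctions, rose from 41.6 ± 6.68 to 129 ± 59.0 FPKM (log2 fold change 1.52 with SE 0.31, adjusted p = 0.0480). Esr2, the estrogen receptor of granulosa cells, missed the threshold without overlap of the groups, from 7.83 ± 3.49 to 22.6 ± 7.33 FPKM (log2 fold change 1.44 with SE 0.31, adjusted p = 0.0535).

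The general granulosa marker Foxl2, which holds the female fate of these cells, served as a check of the tissue and was at 59.0, 56.8 and 51.4 FPKM in F1-Control and 66.0, 57.8 and 56.1 FPKM in F1-HHcy (log2 fold change 0.10 with SE 0.11, adjusted p = 0.611). Kitl, the ligand through which pregranulosa cells act on the oocyte, was at 64.7, 62.3 and 53.6 FPKM in F1-Control and 40.2, 46.6 and 36.0 FPKM in F1-HHcy (log2 fold change -0.55 with SE 0.13, adjusted p = 0.0642). Gatm, a creatine synthesis enzyme, was at 201, 169 and 228 FPKM in F1-Control and 101, 133 and 142 FPKM in F1-HHcy (log2 fold change -0.67 with SE 0.17, adjusted p = 0.0745). Rspo1, a Wnt agonist of the fetal and neonatal ovary, went from 60.9 ± 2.68 to 37.8 ± 10.6 FPKM (log2 fold change -0.72 with SE 0.21, adjusted p = 0.103). The groups of Kitl, Gatm and Rspo1 did not overlap, and none of these genes passed. Kitl was picked after its values were seen.

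**Figure D2:**
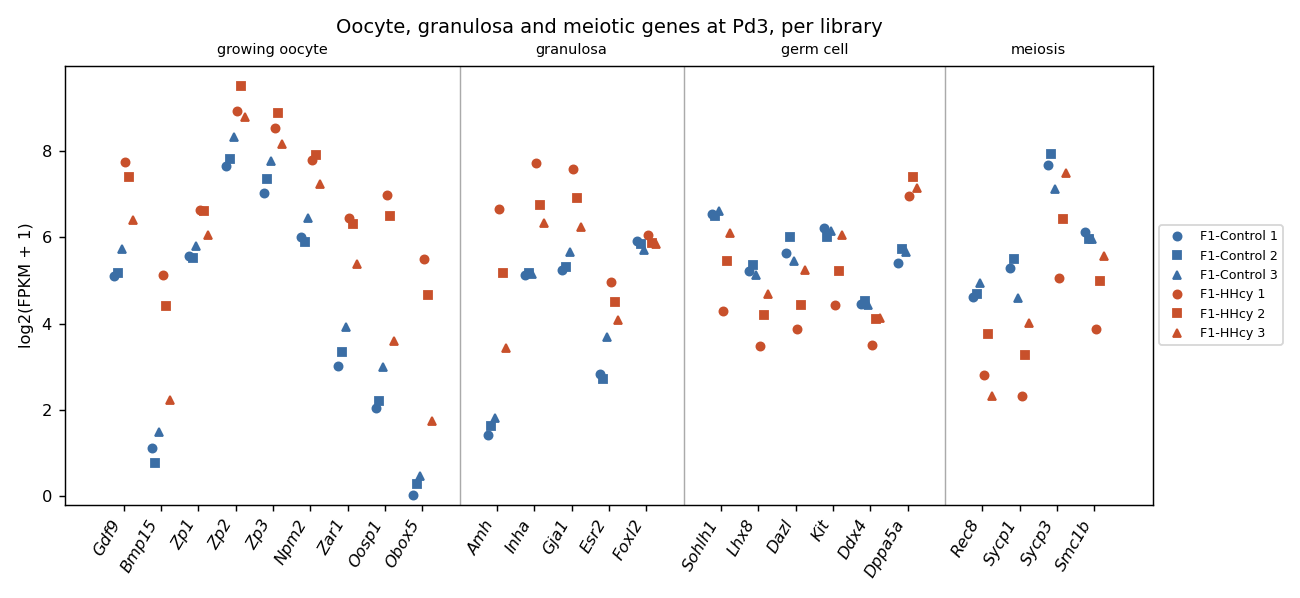
log2(FPKM + 1) of oocyte, granulosa, germ cell and meiotic genes in each of the 6 Pd3 libraries (blue, F1-Control; orange, F1-HHcy; symbols mark replicates 1, 2 and 3). Growing oocyte genes and Amh, Inha and Gja1 lay above the controls in all 3 F1-HHcy libraries, Foxl2 did not separate the groups, and among germ cell and meiotic genes other than Dppa5a and Rec8 F1-HHcy replicate 1 was the lowest library and replicate 3 the F1-HHcy library nearest the controls.

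Germ cell and primordial oocyte genes went the other way, mostly in F1-HHcy replicates 1 and 2. Of 21 tested genes, 1 rose and none fell, 10 met the looser criterion downward, against 4.74% of all genes, and 19 had a negative log2 fold change, with a median of -0.71. The mean level of the list was 5.10, 5.14 and 5.02 in the F1-Control libraries and 3.94, 4.51 and 5.06 in the F1-HHcy libraries on the log2(FPKM + 1) scale, so F1-HHcy replicate 3 lay among the controls. Without that library 16 genes fell, against 12.2% of all genes, and the median was -1.01.

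Lhx8, a transcription factor of primordial oocytes, was at 36.3, 39.8 and 34.0 FPKM in F1-Control and 10.2, 17.3 and 24.7 FPKM in F1-HHcy (log2 fold change -1.11 with SE 0.27, adjusted p = 0.0711). Ybx2, which stores mRNA in germ cells, was at 125, 122 and 127 FPKM in F1-Control and 39.2, 61.2 and 88.2 FPKM in F1-HHcy (log2 fold change -1.05 with SE 0.26, adjusted p = 0.0706). Neither gene overlapped between the groups, and both passed without F1-HHcy replicate 3, with log2 fold changes of -1.40 (adjusted p = 0.00334) and -1.33 (adjusted p = 0.00242). Kit, the oocyte receptor for Kitl, and Sohlh1, a regulator of early oocyte differentiation, were picked after their values were seen. Kit was at 73.5, 63.7 and 70.0 FPKM in F1-Control and 20.5, 36.5 and 65.5 FPKM in F1-HHcy (log2 fold change -0.89 with SE 0.36, adjusted p = 0.198), and Sohlh1 at 92.5, 89.8 and 96.5 and 18.7, 42.7 and 67.9 FPKM in the same order (log2 fold change -1.27 with SE 0.40, adjusted p = 0.122). In both, replicate 1 was lowest and replicate 3 nearest the controls.

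Dppa5a was the gene of this list that rose. This germline RNA-binding protein was at 41.4, 52.3 and 49.8 FPKM in F1-Control and 124, 167 and 139.7 FPKM in F1-HHcy, with all 3 F1-HHcy libraries close together, and it rose (log2 fold change 1.56 with SE 0.15, adjusted p = 0.0142). Dppa3, a maternal factor that protects the DNA methylation of the egg, was the most abundant gene of the list at 622, 731 and 563 FPKM in F1-Control and 319, 529.9 and 628 FPKM in F1-HHcy, with overlapping groups (log2 fold change -0.42 with SE 0.25, adjusted p = 0.361). The panel of germ cell and meiotic genes also shows Ddx4 and Dazl, germ cell RNA-binding proteins picked after their values were seen, with log2 fold changes of -0.56 (adjusted p = 0.122) and -1.18 (adjusted p = 0.0926).

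Genes of meiotic prophase were lower in F1-HHcy. Of 27 genes on the list 20 were tested, and the other 7, among them Stra8 and Spo11, reached at most 1.43 FPKM in any library. All 20 tested genes had a negative log2 fold change (median -0.73). Of them 1 fell (5%, against 1.43% of all tested genes) and 7 met the looser criterion downward (35%, against 4.74%). Without F1-HHcy replicate 3 the median was -0.94 and 14 fell, against 12.2% of all tested genes. Rec8, the meiotic cohesin subunit, was at 23.4, 24.6 and 29.8 FPKM in F1-Control and 5.99, 12.5 and 4.01 FPKM in F1-HHcy, where replicate 3 was the lowest library, and it fell (log2 fold change -1.78 with SE 0.33, adjusted p = 0.0392). Sycp1, which forms the transverse filaments of the synaptonemal complex, was at 38.2, 44.2 and 22.9 FPKM in F1-Control and 3.98, 8.71 and 15.0 FPKM in F1-HHcy (log2 fold change -1.92 with SE 0.42, adjusted p = 0.0559). Sycp3, of the lateral elements, was at 204, 245 and 138 FPKM in F1-Control and 32.5, 84.4 and 178 FPKM in F1-HHcy (log2 fold change -1.26 with SE 0.55, adjusted p = 0.227). Sycp3 overlapped between the groups because of F1-HHcy replicate 3, and its log2 fold change was -1.84 without it.

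The promoters of Sycp1, Sycp3 and Zp3 are shown because genes of meiosis and of the growing oocyte moved in opposite directions while some of their promoters share the E-box CACGTG, a palindrome read the same on both strands. RefSeq windows of 300 bases, from 250 before to 50 after the transcription start (GRCm38.p6), were matched for 18 of the 20 tested meiotic genes, and 6 of them (Hormad1, Stag3, Syce2, Sycp1, Sycp3 and Tex12) held CACGTG. Of the 27 growing oocyte genes 21 were matched, and 3 (Cpeb1, Tle6 and Zp3) held it, against 7.15% of 32851 promoter windows. A list member was counted if any window of the gene held the motif, while the share is of single windows, so the units are unlike. A match is a description of the letters and not of a bound site. Capitals mark CACGTG in the windows of Sycp1 (chr3:102936051-102936350, minus strand), Sycp3 (chr10:88459337-88459636, plus strand) and Zp3 (chr5:135979855-135980154, plus strand).
Sycp1: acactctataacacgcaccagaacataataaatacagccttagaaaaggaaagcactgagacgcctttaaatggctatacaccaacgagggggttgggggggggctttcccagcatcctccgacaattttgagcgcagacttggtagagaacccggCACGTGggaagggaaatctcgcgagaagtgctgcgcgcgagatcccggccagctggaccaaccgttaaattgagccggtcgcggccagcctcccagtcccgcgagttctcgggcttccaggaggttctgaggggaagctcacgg
Sycp3: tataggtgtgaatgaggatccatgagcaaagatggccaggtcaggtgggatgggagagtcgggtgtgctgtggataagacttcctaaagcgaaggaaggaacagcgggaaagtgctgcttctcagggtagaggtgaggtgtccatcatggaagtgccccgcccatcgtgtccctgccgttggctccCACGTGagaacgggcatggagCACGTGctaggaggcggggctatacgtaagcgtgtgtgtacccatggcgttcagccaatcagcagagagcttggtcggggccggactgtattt
Zp3: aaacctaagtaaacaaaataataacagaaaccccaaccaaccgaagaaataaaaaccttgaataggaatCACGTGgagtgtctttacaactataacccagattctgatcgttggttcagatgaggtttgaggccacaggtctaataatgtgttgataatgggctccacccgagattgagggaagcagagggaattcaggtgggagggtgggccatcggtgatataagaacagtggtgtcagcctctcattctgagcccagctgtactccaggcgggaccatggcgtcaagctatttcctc

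Blood cell genes were far lower in F1-HHcy ovaries. Of 21 erythroid genes, 19 were tested and 18 fell, without overlap between the groups, against 1.43% of all genes that fell. Of these, 7 reached the filter only through the controls and had to differ; of the other 12 tested genes, 11 fell. The summed level of the tested genes ran from 4281 to 12467 FPKM in the F1-Control libraries and from 917 to 1274 FPKM in the F1-HHcy libraries. The median log2 fold change was -2.77, and it was -2.74 without F1-HHcy replicate 3.

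Hbb-bs, an adult beta globin gene, was at 5804, 3278 and 2164 FPKM in F1-Control and 510.3, 620.2 and 411 FPKM in F1-HHcy (log2 fold change -2.77 with SE 0.35, adjusted p = 0.0188). Hba-a1, an adult alpha globin gene, was at 3059.5, 1774 and 917 FPKM in F1-Control and 201, 325 and 264 FPKM in F1-HHcy (log2 fold change -2.72 with SE 0.41, adjusted p = 0.0245). Each globin has a near-identical copy (Hbb-bt and Hba-a2), so the split of reads within a pair is uncertain, although all 4 genes fell. Replicate 1 was highest and replicate 3 lowest among the controls for each of the 4 globin genes.

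Several genes of red cell precursors had a larger fall by fold than the globins. Slc4a1, the band 3 anion exchanger, was at 73.9, 55.2 and 26.6 FPKM in F1-Control and 0.121, 0.135 and 3.77 FPKM in F1-HHcy (log2 fold change -4.74 with SE 0.60, adjusted p = 0.0188). Ahsp, the chaperone of free alpha globin, was at 652, 312 and 116 FPKM in F1-Control and 2.64, 4.08 and 17.6 FPKM in F1-HHcy (log2 fold change -5.36 with SE 0.75, adjusted p = 0.0211). In both genes F1-HHcy replicates 1 and 2 lay lowest and replicate 3 between them and the controls. Alas2, the erythroid enzyme of heme synthesis, was at 90.7, 66.6 and 41.6 FPKM in F1-Control and at an even 6.03, 7.46 and 8.35 FPKM in F1-HHcy (log2 fold change -2.96 with SE 0.27, adjusted p = 0.0142). Hemgn, a nuclear protein of erythroid precursors, was at 0 in 1 F1-HHcy library, and Cldn13, a claudin of erythroid cells, in 2. The one erythroid gene of the list that did not fall was Bpgm, whose enzyme tunes oxygen release, at 112, 113 and 105 FPKM in F1-Control and 139, 148 and 90.9 FPKM in F1-HHcy (log2 fold change 0.17 with SE 0.18, adjusted p = 0.635); it was picked for this after its values were seen.

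The 300-base window of Hbb-bs (chr7:103827879-103828178, minus strand, GRCm38.p6) is shown as the promoter of the most abundant gene that fell. Capitals mark CCACACCC, the motif of the erythroid factor KLF1, and AGATAA, which the erythroid factor GATA1 binds, both searched on either strand without overlap of each other. Of 12 tested erythroid genes with a window, 1 held CCACACCC (3.56% of all windows) and 4 held AGATAA (Alas2, Epb42, Hbb-bs and Hemgn; 11.2% of all windows). Here too the members are counted as genes with any matching window and the shares as single windows. Klf1 itself was at 10.9, 7.60 and 2.97 FPKM in F1-Control and 0.0561, 0.208 and 0.413 FPKM in F1-HHcy and fell (log2 fold change -2.61 with SE 0.37, adjusted p = 0.0216); it was picked after its values were seen, and since it was under 1 FPKM in all 3 F1-HHcy libraries it entered the test only through the controls and had to differ.
Hbb-bs: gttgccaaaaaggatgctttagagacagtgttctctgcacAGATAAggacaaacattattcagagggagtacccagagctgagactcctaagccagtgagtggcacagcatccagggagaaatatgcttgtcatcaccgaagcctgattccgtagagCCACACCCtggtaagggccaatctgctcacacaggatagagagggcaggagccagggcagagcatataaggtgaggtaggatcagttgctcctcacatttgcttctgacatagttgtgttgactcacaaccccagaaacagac

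Neutrophil genes had low values in F1-HHcy replicates 1 and 2. Of 12 tested genes of granulocytes and mast cells none passed with all libraries. The looser criterion was met downward by 6 (50%, against 4.74% of all tested genes). Leaving out F1-HHcy replicate 3 gave 6 that fell and 1 that rose, against 12.2% and 9.93% of all tested genes. S100a8, a calcium-binding protein of neutrophils, was at 383, 90.5 and 159 FPKM in F1-Control and 3.24, 2.49 and 42.0 FPKM in F1-HHcy (log2 fold change -4.37 with SE 0.96, adjusted p = 0.0563), and leaving out F1-HHcy replicate 3 gave a log2 fold change of -5.53 (adjusted p = 0.000589). Camp, the neutrophil antimicrobial peptide, was at 81.8, 11.7 and 33.2 FPKM in F1-Control and 0, 0.0466 and 7.02 FPKM in F1-HHcy (log2 fold change -4.02 with SE 0.92, adjusted p = 0.0620). Stefin genes of the cluster that includes Stfa1, protease inhibitors of myeloid cells, were among the 12 largest falls, with Stfa1 at 149, 54.8 and 61.9 FPKM in F1-Control and 1.58, 0.133 and 7.77 FPKM in F1-HHcy (log2 fold change -4.77 with SE 0.71, adjusted p = 0.0239). Other falls of that set were Ahsp, Car2, Slc4a1, Ctse, Cstdc4, Cldn13, Hemgn, Stfa2l1, Stfa2 and Stfa3, and F1-HHcy replicate 3 was the highest F1-HHcy library in all 12. Cldn13 was under 1 FPKM in all 3 F1-HHcy libraries and had to differ. The mast cell protease gene Cma1 was at 14.2, 14.4 and 12.8 FPKM in F1-Control and 17.1, 17.1 and 14.6 FPKM in F1-HHcy (log2 fold change 0.22 with SE 0.11, adjusted p = 0.284), and the mast cell tryptase gene Tpsb2 at 11.5, 15.2 and 13.5 and 14.1, 14.3 and 13.7 FPKM in the same order (log2 fold change 0.07 with SE 0.12, adjusted p = 0.766), both picked after their values were seen.

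Macrophage genes gave no gene that passed among 15 tested (median 0.11). The looser criterion was met downward by 2 (13.3%, against 4.74% of all tested genes). Leaving out F1-HHcy replicate 3 gave 2 that rose and 2 that fell, against 9.93% and 12.2% of all tested genes. Lyz2, the lysozyme of macrophages and granulocytes, was at 82.9, 34.3 and 39.7 FPKM in F1-Control and 48.0, 58.8 and 39.3 FPKM in F1-HHcy (log2 fold change -0.01 with SE 0.32, adjusted p = 0.990). Globins and mitochondrially encoded genes took 4.08% to 6.29% of the fragments in F1-Control and 3.68% to 4.30% in F1-HHcy libraries. When these genes were left out and the rest rescaled, 207 genes rose and 203 fell.

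**Figure D3:**
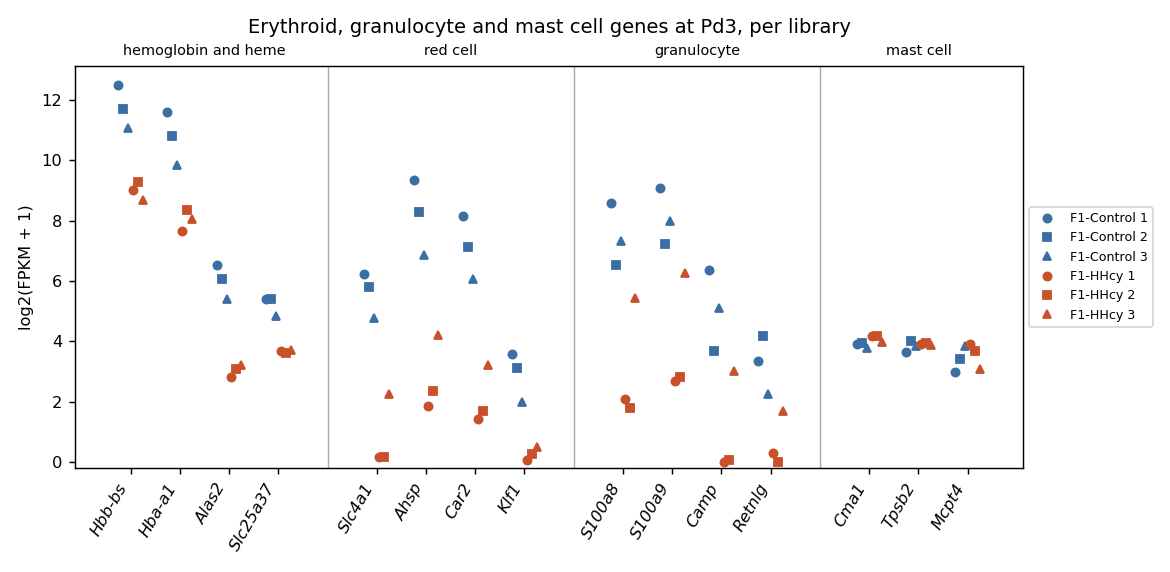
log2(FPKM + 1) of erythroid, granulocyte and mast cell genes in each of the 6 Pd3 libraries (blue, F1-Control; orange, F1-HHcy; symbols mark replicates 1, 2 and 3). The 8 erythroid genes drawn separated the groups in every library, granulocyte genes were lowest in F1-HHcy replicates 1 and 2, and the mast cell genes lay close together in all libraries.

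Stromal, vascular and matrix genes were higher in F1-HHcy. Of 22 tested genes of ovarian stroma and fibroblasts, 7 rose (31.8%, against 1.64% of all tested genes) and none fell. The looser criterion was met upward by 12 (54.5%, against 5.0%), and the median was 0.71. Without F1-HHcy replicate 3, 14 rose, against 9.93% of all tested genes. Pdgfra, a receptor for platelet-derived growth factor on stromal and theca precursor cells, was at 8.34, 11.6 and 11.6 FPKM in F1-Control and 46.1, 42.5 and 32.0 FPKM in F1-HHcy, without overlap (log2 fold change 1.83 with SE 0.18, adjusted p = 0.0142). Col1a2, a chain of type I collagen, was at 109, 151 and 145 FPKM in F1-Control and 364, 294 and 241 FPKM in F1-HHcy (log2 fold change 1.14 with SE 0.19, adjusted p = 0.0307). Mgp, a matrix protein that prevents calcification and the most abundant gene of the list, was at 382, 371 and 376 FPKM in F1-Control and 475, 524 and 325 FPKM in F1-HHcy, with overlap (log2 fold change 0.20 with SE 0.18, adjusted p = 0.558).

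Among 21 tested basement membrane genes 7 rose (33.3%, against 1.64% of all tested genes) and none fell, although 2 of these 7 reached the filter only through F1-HHcy and had to differ. The looser criterion was met upward by 8 (38.1%, against 5.0%), and the median was 0.27. In the fit without F1-HHcy replicate 3, 9 rose and 1 fell, against 9.93% and 12.2% of all tested genes. Col4a4, a chain of the type IV collagen network that replaces the embryonic one in some tissues, was at 1.88, 2.29 and 2.45 FPKM in F1-Control and 18.8, 14.0 and 7.54 FPKM in F1-HHcy (log2 fold change 2.09 with SE 0.29, adjusted p = 0.0203). Nid1, nidogen, the linker between laminin and collagen IV, was at 54.8, 55.2 and 60.2 FPKM in F1-Control and 93.8, 105 and 90.5 FPKM in F1-HHcy (log2 fold change 0.76 with SE 0.10, adjusted p = 0.0203). Col4a1, a chain found in all basement membranes and the most abundant gene of the list, was at 94.2, 87.7 and 103 FPKM in F1-Control and 110.1, 107 and 112 FPKM in F1-HHcy (log2 fold change 0.20 with SE 0.10, adjusted p = 0.275). In the proteoglycan and elastic fibre list 5 of 24 genes rose and none fell, and 16 rose without F1-HHcy replicate 3. Among those that rose was Fbn1, the microfibril protein fibrillin, at 14.0, 14.7 and 17.0 FPKM in F1-Control and a narrow 33.0, 33.1 and 31.4 FPKM in F1-HHcy (log2 fold change 1.05 with SE 0.11, adjusted p = 0.0142).

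Of 18 tested endothelial genes 1 rose (5.56%, against 1.64% of all tested genes). The looser criterion was met upward by 9 (50%, against 5.0%), and the median was 0.60. Of these 18 genes, 2 reached the filter only through F1-HHcy and had to differ; over the other 16, 7 met the looser criterion and the median was 0.56. Without F1-HHcy replicate 3, 13 of the 18 rose, against 9.93% of all tested genes. The gene that rose with all libraries was Eng, endoglin, a coreceptor for TGF-beta, at 6.17, 7.86 and 8.65 FPKM in F1-Control and 18.6, 16.7 and 13.1 FPKM in F1-HHcy (log2 fold change 1.0 with SE 0.17, adjusted p = 0.0313). Cd34, shared by endothelium and stromal progenitors, rose from 39.2 ± 3.87 to 78.1 ± 17.6 FPKM (log2 fold change 0.96 with SE 0.17, adjusted p = 0.0326). In smooth muscle and pericytes 1 of 18 genes rose with all libraries (5.56%, against 1.64% of all tested genes). The looser criterion was met upward by 8 (44.4%, against 5.0%), and 13 rose without F1-HHcy replicate 3, against 9.93%. The mean level of this list was 2.81, 2.88 and 3.20 in F1-Control and 4.02, 3.82 and 3.01 in F1-HHcy, so replicate 3 lay among the controls. The 1 gene of this list that rose was Pdgfrb, the pericyte receptor for platelet-derived growth factor, from 5.46 ± 1.30 to 12.4 ± 1.15 FPKM (log2 fold change 1.07 with SE 0.17, adjusted p = 0.0285). Acta2, smooth muscle actin, was at 32.9, 38.9 and 57.5 FPKM in F1-Control and 193, 121 and 31.7 FPKM in F1-HHcy (log2 fold change 1.09 with SE 0.59, adjusted p = 0.316), so only F1-HHcy replicates 1 and 2 lay above the controls, and its log2 fold change was 1.84 without F1-HHcy replicate 3.

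Of the theca genes, 1 of 13 tested rose, a gene of hedgehog signalling (7.69%, against 1.64% of all tested genes). The looser criterion was met upward by 3 (23.1%, against 5.0%), and 6 rose without F1-HHcy replicate 3, against 9.93% of all tested genes. Ptch1, the hedgehog receptor and a target of the pathway, was at 9.55, 8.34 and 9.90 FPKM in F1-Control and 33.3, 21.3 and 17.95 FPKM in F1-HHcy and rose (log2 fold change 1.25 with SE 0.21, adjusted p = 0.0320). Gli1, the transcription factor that the pathway induces, was at 2.18, 5.49 and 6.96 FPKM in F1-Control and 24.6, 18.5 and 11.9 FPKM in F1-HHcy (log2 fold change 1.76 with SE 0.37, adjusted p = 0.0532). Hsd3b1, an enzyme of steroid synthesis, was at 109.5, 88.8 and 143 FPKM in F1-Control and 604, 339.9 and 61.6 FPKM in F1-HHcy (log2 fold change 1.06 with SE 0.74, adjusted p = 0.436), high in replicates 1 and 2 and below the controls in replicate 3. Among the theca genes that stayed under the filter, Cyp17a1, the androgen-forming enzyme of theca cells, was at 0.787, 0.576 and 0.665 FPKM in F1-Control and 43.3, 1.06 and 0.552 FPKM in F1-HHcy, and Cyp11a1, which cuts the side chain of cholesterol, was at 0.435, 0.569 and 0.517 FPKM in F1-Control and 19.5, 1.32 and 0.324 FPKM in F1-HHcy. For both, F1-HHcy replicate 1 alone was high, and both were picked after their values were seen.

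Immediate early genes, which cells induce within minutes of a stimulus, set F1-HHcy replicate 3 apart and did not separate the diets. They were listed together with genes of MAP kinase (MAPK) signalling. Of 26 tested genes on this joint list 1 rose and none fell, and 2 rose and 2 fell without F1-HHcy replicate 3. The list median was 0.83 with all libraries and -0.01 without F1-HHcy replicate 3. Fos, a subunit of the AP-1 factor, was at 44.5, 53.6 and 38.4 FPKM in F1-Control and 59.7, 26.6 and 818 FPKM in F1-HHcy (log2 fold change 1.27 with SE 1.08, adjusted p = 0.526). Egr1, an early zinc finger factor, was at 114, 94.6 and 88.0 FPKM in F1-Control and 138, 78.4 and 536 FPKM in F1-HHcy (log2 fold change 0.87 with SE 0.61, adjusted p = 0.438). The phosphatase gene Dusp1, which ends MAP kinase signalling and was picked after its values were seen, was at 9.84, 14.5 and 10.9 FPKM in F1-Control and 14.7, 7.99 and 219 FPKM in F1-HHcy. Without F1-HHcy replicate 3 the log2 fold changes of Fos, Egr1 and Dusp1 were -0.17, 0.08 and -0.08. Myc, the growth-promoting transcription factor, was the gene that rose, at 5.94, 6.00 and 5.44 FPKM in F1-Control and 21.7, 10.3 and 15.8 FPKM in F1-HHcy (log2 fold change 1.26 with SE 0.23, adjusted p = 0.0392). How the tissue of F1-HHcy replicate 3 was handled is not given in the sources used here, and the part of handling in these values was not tested.

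**Figure D4:**
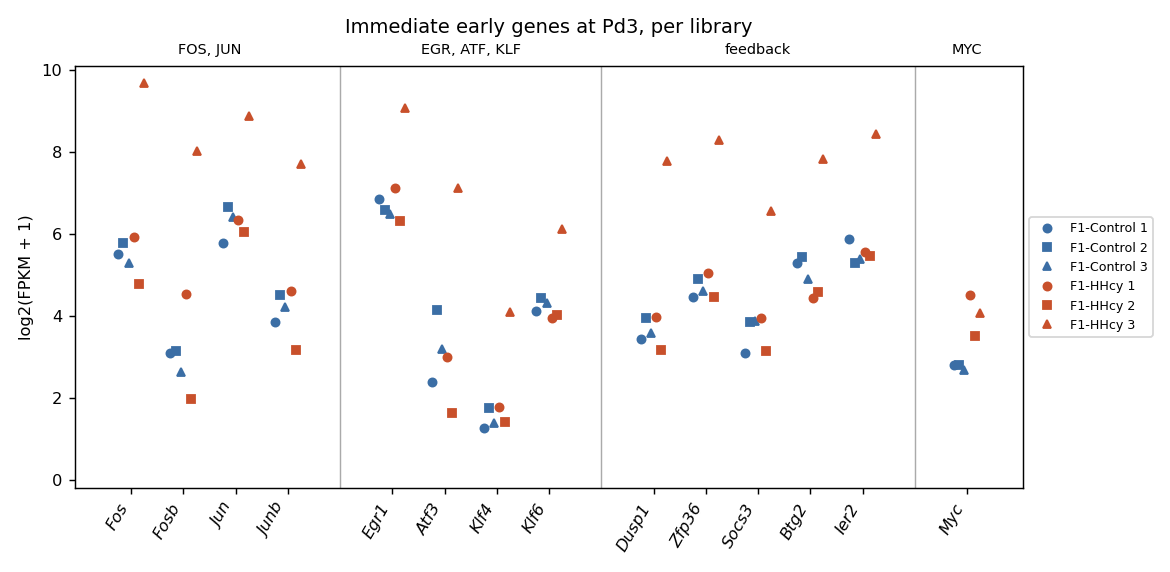
log2(FPKM + 1) of immediate early genes in each of the 6 Pd3 libraries (blue, F1-Control; orange, F1-HHcy; symbols mark replicates 1, 2 and 3). F1-HHcy replicate 3 was the highest library for every gene drawn except Myc, which lay above the controls in all 3 F1-HHcy libraries.

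Genes of the methionine cycle, which the diet of the dams loads, did not pass in either direction. Of 24 genes on the list 19 were tested, and 1 met the looser criterion upward (5.26%, against 5.0% of all tested genes). Without F1-HHcy replicate 3, 3 rose and 2 fell. Mat2a, which makes S-adenosylmethionine outside the liver, was at 53.4, 50.1 and 65.1 FPKM in F1-Control and 73.8, 73.6 and 68.4 FPKM in F1-HHcy, without overlap and with a small difference (log2 fold change 0.36 with SE 0.12, adjusted p = 0.142). Ahcy, which splits S-adenosylhomocysteine into homocysteine and adenosine, was at 41.4, 43.0 and 51.1 FPKM in F1-Control and 50.1, 47.9 and 23.8 FPKM in F1-HHcy, low in F1-HHcy replicate 3 alone (log2 fold change -0.21 with SE 0.27, adjusted p = 0.679). Mtr, the methionine synthase that turns homocysteine back into methionine, was at 5.80, 5.12 and 7.05 FPKM in F1-Control and 3.88, 4.96 and 5.24 FPKM in F1-HHcy, with overlap (log2 fold change -0.30 with SE 0.16, adjusted p = 0.309), and its reactivating partner Mtrr had a log2 fold change of 0.30. The gene that met the looser criterion was Cdo1, which oxidizes cysteine, at 10.5, 13.4 and 16.3 FPKM in F1-Control and 45.8, 39.4 and 14.4 FPKM in F1-HHcy (log2 fold change 1.12 with SE 0.40, adjusted p = 0.158), again with replicate 3 at the control level.

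In transsulfuration, Cth, which makes cysteine, was at 1.51, 2.94 and 2.41 FPKM in F1-Control and 2.49, 2.24 and 1.48 FPKM in F1-HHcy (log2 fold change -0.09 with SE 0.21, adjusted p = 0.833). Cbs, which takes homocysteine into this route, was not tested, at 0.196, 0.203 and 0.166 FPKM in F1-Control and 6.66, 0.345 and 0.380 FPKM in F1-HHcy, so that F1-HHcy replicate 1 alone held it above 1 FPKM. Adi1, of the methionine salvage route, was lower without overlap, at 24.8, 25.9 and 24.3 FPKM in F1-Control and 14.7, 16.2 and 21.1 FPKM in F1-HHcy (log2 fold change -0.51 with SE 0.14, adjusted p = 0.0916). The other tested members, Mat2b, Ahcyl1, Ahcyl2, Gnmt, Pemt, Gamt, Amd1, Srm, Sms, Mtap, Csad and Suox, had log2 fold changes from -0.35 (Ahcyl2) to 0.54 (Srm). Mat1a, Bhmt, Bhmt2 and Nnmt, enzymes best known from liver, stayed under 1 FPKM in all 6 libraries. None of 19 tested folate and serine genes and none of 28 DNA and histone methylation genes passed with limma. The looser criterion was met by 0 of the former and by 1 of the latter upward (3.57%, against 5.0% of all tested genes). Without F1-HHcy replicate 3, 4 folate and serine genes rose and 1 fell, and 3 methylation genes rose and 1 fell. In the latter list Tet1, which oxidizes 5-methylcytosine, had the smallest p, at 1.07, 0.963 and 1.21 FPKM in F1-Control and 2.09, 2.23 and 1.73 FPKM in F1-HHcy (log2 fold change 0.53 with SE 0.14, adjusted p = 0.0848).

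Glutathione and antioxidant genes included 3 that fell among 31 tested (9.68%, against 1.43% of all tested genes), with none that rose. The looser criterion was met by 3 upward and 3 downward (9.68% each, against 5.0% and 4.74%). Without F1-HHcy replicate 3, 5 rose and 6 fell, against 9.93% and 12.2% of all tested genes. Gsr, glutathione reductase, was at 35.2, 35.7 and 32.6 FPKM in F1-Control and 18.8, 21.8 and 21.6 FPKM in F1-HHcy (log2 fold change -0.71 with SE 0.10, adjusted p = 0.0225), and Gclm, the modifier subunit of the enzyme that begins glutathione synthesis, was at 43.8, 49.0 and 36.6 FPKM in F1-Control and 15.8, 21.6 and 27.0 FPKM in F1-HHcy (log2 fold change -1.0 with SE 0.20, adjusted p = 0.0453). Gpx1, a glutathione peroxidase that red cells also hold in quantity, was at 416, 303 and 211 FPKM in F1-Control and 145, 131 and 120.4 FPKM in F1-HHcy (log2 fold change -1.18 with SE 0.23, adjusted p = 0.0449). Its order among the controls was that of the globins, and the part of red cells in its change was not tested. Of 15 tested retinoid genes 2 rose and 1 fell, against 6 and 2 without F1-HHcy replicate 3. In this list Aldh1a1, which makes retinoic acid, fell from 257 ± 16.0 to 143 ± 21.5 FPKM (log2 fold change -0.86 with SE 0.13, adjusted p = 0.0279), while Rbp4, the carrier of retinol, rose from 2.53 ± 0.297 to 6.29 ± 0.367 FPKM (log2 fold change 1.05 with SE 0.13, adjusted p = 0.0169) and the retinoid receptor gene Rxra from 8.24 ± 0.535 to 12.4 ± 0.932 FPKM (log2 fold change 0.54 with SE 0.11, adjusted p = 0.0486).

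In the pathway of PI3K and its targets, by which oocytes leave dormancy, none of 30 tested genes passed (median -0.07). The looser criterion was met by 2 upward and 2 downward (6.67% each, against 5.0% and 4.74% of all tested genes). Leaving out F1-HHcy replicate 3 gave 2 that rose and 5 that fell, against 9.93% and 12.2% of all tested genes. Cdkn1b, the cell cycle inhibitor p27 of dormant oocytes, was at 129.7, 142 and 101 FPKM in F1-Control and 41.2, 69.6 and 82.2 FPKM in F1-HHcy, without overlap (log2 fold change -0.98 with SE 0.25, adjusted p = 0.0818), and it was among the 5 that fell without that library (log2 fold change of -1.18, adjusted p = 0.0105). Foxo3, the factor that keeps oocytes dormant, was picked after its values were seen, at 31.6, 29.1 and 34.4 FPKM in F1-Control and 17.0, 21.8 and 28.3 FPKM in F1-HHcy (log2 fold change -0.51 with SE 0.18, adjusted p = 0.154). Cdkn2a, another cell cycle inhibitor and the one of 32 proliferation genes that passed, fell from 13.2 ± 1.31 to 4.42 ± 2.00 FPKM (log2 fold change -1.46 with SE 0.27, adjusted p = 0.0386). Without F1-HHcy replicate 3, 10 proliferation genes rose and 3 fell, against 9.93% and 12.2% of all tested genes. In Wnt signalling, the feedback target Axin2 fell from 28.1 ± 1.85 to 16.8 ± 3.07 FPKM (log2 fold change -0.72 with SE 0.15, adjusted p = 0.0480) and the secreted inhibitor Sfrp1 rose from 26.1 ± 2.14 to 48.5 ± 7.91 FPKM (log2 fold change 0.86 with SE 0.14, adjusted p = 0.0303). Of 24 tested Wnt genes, 5 rose and 5 fell when F1-HHcy replicate 3 was left out, against 9.93% and 12.2% of all tested genes.

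Some of the genes described at Pd3 are set beside the level of older control ovaries, as examples and not as a count. F1-Control ovaries at Pd7, 3 further libraries of the same batch, held Amh at 40.1 ± 31.2 FPKM (mean ± SD, n = 3), Gdf9 at 199.96 ± 91.6, Zar1 at 77.1 ± 22.0 and Pdgfra at 40.4 ± 6.23 FPKM. The same libraries held Lhx8 at 17.3 ± 4.43, Rec8 at 9.47 ± 4.00 and Hbb-bs at 1454 ± 1252 FPKM. In F1-HHcy ovaries at Pd3, Amh was at 48.2 ± 46.4, Zar1 at 68.7 ± 24.5 and Pdgfra at 40.2 ± 7.35 FPKM. Lhx8 was at 17.4 ± 7.27, Rec8 at 7.51 ± 4.47 and Hbb-bs at 514 ± 105 FPKM there. The Pd3 controls would be shared between a test of diet and a test of age, so these values are set side by side without one.

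The diet effect at Pd3 differed from that at Pd7 for 72 of 13998 genes (0.514%), tested as the interaction of diet and day with limma in the 12 libraries of batch 1. The effect at Pd3 was above that at Pd7 for 50 of them, and the signs were opposite for 62. A sign was counted however small the effect, so the 62 include genes with little difference on 1 of the days. Npm2, for example, had a log2 fold change of 1.53 at Pd3 and -0.18 at Pd7. The 62 are therefore not a count of reversed effects. Zp2 was at 591, 906 and 578 FPKM in F1-Control and 301, 250.4 and 359 FPKM in F1-HHcy at Pd7, so it was lower in F1-HHcy there, after being higher at Pd3 (difference of 2.31, SE 0.35, adjusted p = 0.0192). Dppa5a was at 157, 236 and 126 FPKM in F1-Control and 112, 105 and 96.5 FPKM in F1-HHcy at Pd7 (difference of 2.24, SE 0.28, adjusted p = 0.0192). Zar1 at Pd7 was at 51.8, 91.6 and 88.0 FPKM in F1-Control and 76.7, 61.6 and 119 FPKM in F1-HHcy, a log2 fold change of 0.14 against 2.62 at Pd3. Pdgfra at Pd7 was at 37.9, 35.9 and 47.5 FPKM in F1-Control and 57.2, 61.4 and 37.5 FPKM in F1-HHcy, with log2 fold changes of 0.34 at Pd7 and 1.83 at Pd3. Without F1-Control Pd3 replicate 1 or 2 no gene passed this test, and without F1-HHcy Pd3 replicate 2 a single gene did. The count was 197 without F1-HHcy Pd3 replicate 1 and 449 without F1-HHcy Pd3 replicate 3.

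**Figure D5:**
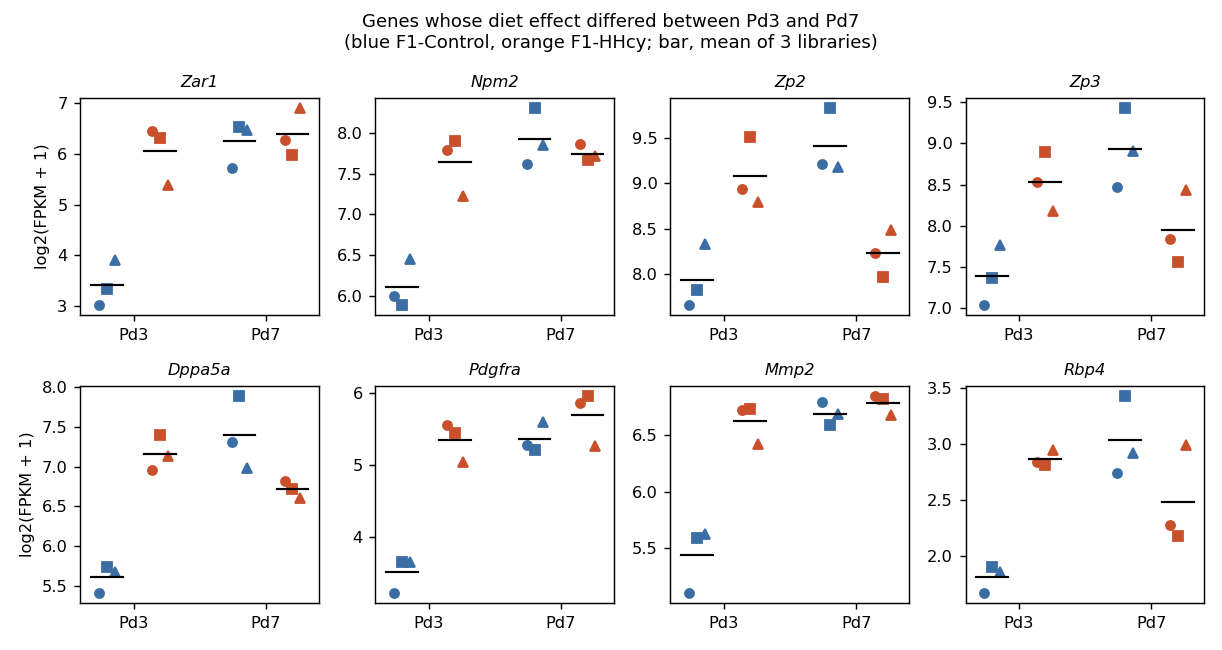
log2(FPKM + 1) of 8 genes whose diet effect differed between Pd3 and Pd7 (adjusted p under 0.05), in the 12 libraries of batch 1 (blue, F1-Control; orange, F1-HHcy; symbols mark replicates 1, 2 and 3; bars are means of 3 libraries). The F1-HHcy values at Pd3 lay above their controls in every panel, and at Pd7 Npm2, Zp2, Zp3, Dppa5a and Rbp4 had a lower mean in F1-HHcy.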

How the data were processed

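Per the submitters' processing notes, the reads of stranded poly-A libraries were handled with FastQC 0.11.9, Trimmomatic 0.39, STAR 2.7.9a and featureCounts 2.0.1, with DESeq2 1.36.0 also named, on GRCm38/mm10. The annotation release and whether counting used strand are not given in the sources used here. The authors deposited 1 linear value per gene symbol for 30172 genes without naming the unit, read here as FPKM, since a length per gene gave whole fragments (within 0.01) for 99.989% of 27294 genes.

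limma 3.58.1 in R 4.3.3, with a variance trend, was fitted to log2(FPKM + 1) for the genes that reached 1 FPKM in 3 or more of the 6 libraries, with Benjamini-Hochberg adjustment. The pseudocount shrinks fold changes of low genes. With 3 libraries against 3 an exact permutation test of 1 gene cannot go below p = 0.10, and no source says that libraries came from separate litters, so p-values measure the spread between these libraries. In simulated data with 200 of 13277 genes changed by 1.5 on the log2 scale, 194 were called, with 18 false calls. The simulated libraries were drawn independently around the mean of each gene and held no library that stands apart like F1-HHcy replicate 3. The recovery therefore checks the fit and does not describe these data.

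Members and the 45 gene lists were chosen with earlier results of these data known. The rule for named genes took the 3 most abundant and the 4 smallest p of each list, the 12 largest rises and falls among genes past the threshold without overlap (30 of those 408 genes had Gm or Rik symbols and were only counted), and all methionine cycle genes. It took 308 genes, of which the text gives some with values and the rest only in the counts of their lists; some are not reported here. Genes named outside it are marked as such, apart from the tissue marker Foxl2. Alternatives were a pseudocount of 0.1, other filters, median-ratio scaling, leaving out mitochondrial and hemoglobin genes, wider sets of libraries, a replicate block, limma-voom on the recovered fragments, and each library left out. Python 3.11.15 with numpy, pandas and matplotlib made tables and figures.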

Additional observations from a re-analysis of the deposited data

Results flagged for a closer look

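The diet effect differed between Pd3 and Pd7 (limma's interaction test, Benjamini-Hochberg adjusted over 13998 genes) for 9 of the genes described in the text, each given as the log2 fold change at Pd3 minus that at Pd7 with its standard error. The oocyte genes were Zar1 (difference of 2.49, SE 0.47, adjusted p = 0.0428), Zp2 (difference of 2.31, SE 0.35, adjusted p = 0.0192), Dppa5a (difference of 2.24, SE 0.28, adjusted p = 0.0192), Zp3 (difference of 2.14, SE 0.41, adjusted p = 0.0428) and Npm2 (difference of 1.71, SE 0.30, adjusted p = 0.0302). The other genes were Rbp4 (difference of 1.60, SE 0.31, adjusted p = 0.0428), Pdgfra (difference of 1.5, SE 0.29, adjusted p = 0.0428), Mmp2 (difference of 1.09, SE 0.21, adjusted p = 0.0435) and the mitochondrial gene ND6 (difference of -1.64, SE 0.32, adjusted p = 0.0449). For all of them except ND6 the F1-HHcy libraries were higher than the controls in 3 of 3 libraries at Pd3, and for ND6 they were lower in 3 of 3.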

How the results depend on the processing

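The adjusted calls depended on the set of genes and libraries. Against 218 genes that rose and 190 that fell, limma gave 0 and 0 without a filter on low values (27825 genes, 4209 at an unadjusted p under 0.05; 734 and 614 by the looser criterion). With a filter of 5 FPKM, which tested 9160 genes, 116 fell. In a fit of the 12 libraries of batch 1 the counts were 461 and 380, in a fit of all 18 libraries 438 and 439, and limma-voom gave 118 that fell. The looser criterion, used as the call rule, gave 664 and 629. Leaving out each library gave from 0 to 1319 that rose and from 0 to 1618 that fell, and from 0 to 449 genes that differed from Pd7, where 72 passed. Without a filter 32 genes differed from Pd7. The cause was not tested. Deviations of same-numbered libraries from their group means correlated at -0.149, -0.137 and -0.200, and those of differently numbered libraries from -0.0702 to 0.171. Deviations within groups of 3 are tied to each other, so these values cannot settle whether replicate numbers pair the samples. A fit with the replicate block gave 0 and 1 genes, 646 and 609 by the looser criterion, and 40 that differed from Pd7. None of the 408 genes turned in an alternative that tested it; as their groups do not overlap, leaving out a library could not turn one. Directions that turned were of genes that did not pass with all libraries. Lyz2 was 0.018 under median-ratio scaling. Without 1 library the range was -0.40 to 0.12 for Ahcy, -0.27 to 0.055 for Cth, -0.085 to 2.22 for Dusp1, -0.17 to 2.27 for Fos, -0.25 to 0.37 for Lyz2 and -0.026 to 0.16 for Tpsb2. Medians of all 45 lists moved by less than the spread between libraries under median-ratio scaling, and of 40 without F1-HHcy replicate 3. That spread includes F1-HHcy replicate 3 itself, so the count of 40 cannot show that a list is unaffected by that library. The median of the MAPK and immediate early list, for example, was 0.83 with all libraries and -0.01 without F1-HHcy replicate 3.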

Other observations

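Imprinted growth genes varied among the F1-HHcy libraries. Of 19 tested genes none passed. The looser criterion was met by 2 upward and 2 downward (10.5% each, against 5.0% and 4.74% of all tested genes). Leaving out F1-HHcy replicate 3 gave 4 that rose and 6 that fell, against 9.93% and 12.2% of all tested genes. The median log2 fold change was -0.24 with all libraries and -0.55 without F1-HHcy replicate 3. H19, the maternally expressed noncoding RNA next to Igf2, was at 551, 637 and 640.0 FPKM in F1-Control and 102, 235 and 678 FPKM in F1-HHcy (log2 fold change -1.26 with SE 0.58, adjusted p = 0.252). Igf2, the paternally expressed fetal growth factor, was at 75.9, 74.7 and 74.0 FPKM in F1-Control and 13.8, 29.6 and 85.3 FPKM in F1-HHcy (log2 fold change -1.16 with SE 0.54, adjusted p = 0.256) and was picked after its values were seen. Both were low in replicates 1 and 2 and slightly above every control in replicate 3, and without that library their log2 fold changes were -1.97 (adjusted p = 0.00467) and -1.83 (adjusted p = 0.00334).

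Complement and chemokine genes included 2 that rose among 18 tested and none that fell, against 4 and 2 without F1-HHcy replicate 3. Serping1, the inhibitor of complement C1, was at 31.8, 41.0 and 35.0 FPKM in F1-Control and 82.7, 81.1 and 57.4 FPKM in F1-HHcy (log2 fold change 1.01 with SE 0.17, adjusted p = 0.0307), and Cxcl12, a stromal chemokine, went from 7.76 ± 1.25 to 14.6 ± 2.31 FPKM (log2 fold change 0.84 with SE 0.16, adjusted p = 0.0401). In the Hippo list 1 of 18 genes rose, and 3 without F1-HHcy replicate 3. The former was Ccn2, a matricellular target of YAP, at 5.39, 5.70 and 7.18 FPKM in F1-Control and 36.1, 12.9 and 21.6 FPKM in F1-HHcy (log2 fold change 1.69 with SE 0.32, adjusted p = 0.0411). Among 13 mitochondrially encoded genes all had a negative log2 fold change (median -0.35), and ND6, a subunit of complex I, fell, at 161, 165 and 113 FPKM in F1-Control and 64.7, 74.9 and 85.5 FPKM in F1-HHcy (log2 fold change -0.94 with SE 0.17, adjusted p = 0.0392).

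Fibrillar and minor collagens held 6 genes that rose among 21 tested, with none that fell, and 10 rose without F1-HHcy replicate 3. Col5a1, a chain that sets the width of collagen fibrils, was at 13.5, 18.1 and 18.9 FPKM in F1-Control and 35.1, 28.9 and 34.1 FPKM in F1-HHcy (log2 fold change 0.93 with SE 0.15, adjusted p = 0.0292). Of 23 matrix protease genes 3 rose, and 7 rose and 2 fell without that library. Mmp2, a gelatinase of stromal cells, was at 33.4, 47.3 and 48.5 FPKM in F1-Control and 105, 105 and 85.0 FPKM in F1-HHcy (log2 fold change 1.18 with SE 0.17, adjusted p = 0.0214). Of 24 receptor tyrosine kinase and growth factor genes 5 rose, and 10 rose and 1 fell without that library. Igfbp7, a secreted protein that binds insulin-like growth factors, was at 54.5, 73.0 and 63.5 FPKM in F1-Control and 198, 160.0 and 104 FPKM in F1-HHcy (log2 fold change 1.22 with SE 0.23, adjusted p = 0.0403).

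In the cAMP list 2 of 16 genes rose, and 6 rose and 1 fell without F1-HHcy replicate 3. Adcy7, an adenylate cyclase, was at 1.61, 1.36 and 1.78 FPKM in F1-Control and 13.9, 8.04 and 5.09 FPKM in F1-HHcy (log2 fold change 1.86 with SE 0.30, adjusted p = 0.0288). Of 29 TGF-beta family genes 2 rose, Tgfbr2 (log2 fold change 0.66 with SE 0.12, adjusted p = 0.0362) and Tgfbr3 (log2 fold change 0.84 with SE 0.12, adjusted p = 0.0211), receptors for TGF-beta, and 10 rose and 2 fell without that library. Of 16 natriuretic peptide and cGMP genes 1 rose, Nppc, which encodes C-type natriuretic peptide, at 1.42, 0.696 and 0.902 FPKM in F1-Control and 3.18, 5.09 and 5.35 FPKM in F1-HHcy (log2 fold change 1.46 with SE 0.21, adjusted p = 0.0229), and 7 rose and 1 fell without that library. Of 32 cholesterol and lipid genes 1 rose, Lrp1, a lipoprotein receptor (log2 fold change 0.89 with SE 0.15, adjusted p = 0.0320), and 6 rose and 3 fell without it. Casq2, a calcium store protein of muscle, rose as the one gene of 22 calcium handling and of 6 muscle genes tested, but it was under 1 FPKM in all controls and had to differ, and 4 calcium genes rose and 3 fell without that library.

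The other lists gave no gene that passed with limma. By the looser criterion, with the counts that rose and fell without F1-HHcy replicate 3 after them, they held for adipocytes 1 gene upward and 1 downward of 7 (2 and 1), for surface epithelium 3 downward of 18 (1 and 3), for oviduct epithelium 0 of 11 (0 and 2), for neural and Schwann cells 2 upward and 1 downward of 8 (3 and 1), and for Notch 1 upward of 13 (1 and 1). They held for ER stress 1 upward of 22 (5 and 2), for oocyte apoptosis 2 downward of 24 (2 and 4), for nuclear oxidative phosphorylation 1 downward of 31 (0 and 5), for cytosolic ribosomal proteins 0 of 30 (4 and 0), and for Hox genes 1 upward of 13 (4 and 0). Among all tested genes, 5.0% met the looser criterion upward and 4.74% downward. The shares that rose and fell without F1-HHcy replicate 3 were 9.93% and 12.2%.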
